A study of Mus musculus with 4 samples.

Results

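Mitosis, spindle and kinetochore genes were compared between untreated NMuMG cells, an epithelial line from normal mouse mammary gland, and NMuMG cells given TGF-beta. The members were the 42 genes of a fixed list of cyclins, mitotic kinases, kinesins, kinetochore proteins and cytokinesis proteins, matched by gene symbol. Of these, 39 were found, 38 of them among the 14847 genes with a gene-level value and 39 through 777 of the 229581 exon-level probesets. Foxm1 was read at exon level only, and Ccnb1, Cenpf and Kif14 were not analysed here. The treated cells received 1 ng/ml recombinant human TGF-beta1 for 24 h, the control cells received nothing, and both grew in DMEM with 10% fetal bovine serum and 10 ug/ml insulin. Total RNA was labelled with biotin and hybridised to Affymetrix exon arrays. Each condition was 1 culture on 1 array at each level, both levels described the same samples, and no difference below has a replicate check or a p-value.

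Cells enter mitosis once the kinase Cdk1, joined to A- and B-type cyclins, is active. Kinesin motors and their partners then build the spindle, kinetochores tie the chromosomes to it, and a checkpoint holds back chromatid separation until every chromosome is attached. The RNAs of most of these proteins accumulate in G2 and M phase and are low in resting cells, so in bulk RNA they serve as markers of dividing cells. TGF-beta is known to slow the division of many epithelial cells in G1. In bulk RNA, fewer dividing cells and less RNA per dividing cell cannot be told apart.

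Many promoters of this class carry the CHR element (cell cycle genes homology region), a short site bound by the MuvB complexes that repress these genes in resting cells and activate them before mitosis, and CCAAT boxes, bound by the factor NF-Y. The promoter windows of 6 members are printed because they cover both ends of the range of differences described below. Each runs 5′ to 3′ on the strand of its gene, from 250 bases before to 50 bases after the start in the RefSeq table of GRCm38.p6. Capitals mark TTTGAA or its reverse complement TTCAAA, the variant TTCGAA, and CCAAT or its reverse complement ATTGG.
Mki67 (chr7:135716330-135716629, minus strand): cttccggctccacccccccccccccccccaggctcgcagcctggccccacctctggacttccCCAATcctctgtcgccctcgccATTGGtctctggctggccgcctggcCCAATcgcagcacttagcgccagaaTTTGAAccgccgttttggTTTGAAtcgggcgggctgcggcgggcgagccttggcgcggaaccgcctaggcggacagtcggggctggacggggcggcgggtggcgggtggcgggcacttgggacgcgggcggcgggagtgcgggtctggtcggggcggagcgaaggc
Ttk (chr9:83834439-83834738, plus strand): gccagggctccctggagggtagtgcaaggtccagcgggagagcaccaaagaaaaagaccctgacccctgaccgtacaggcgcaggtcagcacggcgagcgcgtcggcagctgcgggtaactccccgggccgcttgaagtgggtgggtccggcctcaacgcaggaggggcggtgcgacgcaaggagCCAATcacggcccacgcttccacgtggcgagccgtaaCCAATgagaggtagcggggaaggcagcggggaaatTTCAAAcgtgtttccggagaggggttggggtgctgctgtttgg
Cdc20 (chr4:118437294-118437593, minus strand): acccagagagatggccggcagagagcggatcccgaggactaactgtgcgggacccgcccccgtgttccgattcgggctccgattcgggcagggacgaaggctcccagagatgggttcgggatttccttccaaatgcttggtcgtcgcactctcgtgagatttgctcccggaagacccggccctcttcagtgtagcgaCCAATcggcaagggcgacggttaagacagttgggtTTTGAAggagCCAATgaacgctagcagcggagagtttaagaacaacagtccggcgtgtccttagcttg
Cdk1 (chr10:69352863-69353162, minus strand): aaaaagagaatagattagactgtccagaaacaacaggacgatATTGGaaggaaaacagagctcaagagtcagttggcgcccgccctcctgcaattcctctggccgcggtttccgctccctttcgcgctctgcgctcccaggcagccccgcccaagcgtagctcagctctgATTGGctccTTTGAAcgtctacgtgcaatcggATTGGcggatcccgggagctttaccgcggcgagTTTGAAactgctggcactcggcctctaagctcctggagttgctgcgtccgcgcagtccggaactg
Ube2c (chr2:164769679-164769978, plus strand): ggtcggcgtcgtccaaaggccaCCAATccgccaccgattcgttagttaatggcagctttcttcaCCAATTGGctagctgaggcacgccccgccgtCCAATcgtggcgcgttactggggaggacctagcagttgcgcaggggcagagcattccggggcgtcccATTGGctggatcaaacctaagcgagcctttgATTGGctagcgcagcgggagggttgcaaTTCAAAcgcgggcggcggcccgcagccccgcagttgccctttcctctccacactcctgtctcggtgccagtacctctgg
Kif18a (chr2:109280488-109280787, plus strand): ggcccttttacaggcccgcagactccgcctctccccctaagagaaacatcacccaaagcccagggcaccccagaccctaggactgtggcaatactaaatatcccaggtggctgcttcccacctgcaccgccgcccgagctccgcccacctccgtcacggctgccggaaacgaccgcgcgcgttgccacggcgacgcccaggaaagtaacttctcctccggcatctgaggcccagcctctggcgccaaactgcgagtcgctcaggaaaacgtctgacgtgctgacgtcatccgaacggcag

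TTTGAA lies at −18 in the Cdc20 window and at −71 and −15 in the Cdk1 window, counted to the first base of the match. On the other strand, the Ube2c window holds it at −29 and the Ttk window at 8 bases after the start. Mki67 has it at −116 and −98, farther from the start, and the Kif18a window holds none of the motifs. Of the 36 members with a window in the table, 28 (77.8%) held TTTGAA or TTCGAA on either strand, against 21.7% of all 27025 genes in the table and 16.2% of the 7491 genes in it that were at level on the arrays. Within 50 bases before or after the start, the motif was in 25 members (69.4%), against 6.12% of all genes and 4.20% of genes at level. CCAAT on either strand was in 26 members (72.2%), against 41.1% and 43.2%, and 17 members held it at 2 or more places (47.2%, against 13.3% and 17.1%). Overlapping matches were each counted. A match is a string of letters and was not tested as a binding site.

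With TGF-beta, every one of the 38 mitotic genes with a gene-level value was lower than in untreated cells. The median difference, TGF-beta minus untreated on the scale log2(intensity + 1), was −0.83, and values ran from −1.65 for Mki67 to −0.24 for Ube2c. The largest sizes were those of the proliferation antigen Mki67, the kinesin Kif18a, the checkpoint kinase Ttk and the anaphase activator Cdc20, whereas the E2 enzyme Ube2c, the centromere histone Cenpa and the kinase Cdk1 differed least. Genes counted as at level if their brighter array reached 124, which is the median of all gene-level values. All 38 members were at level in both arrays. Of the 9159 genes at level, 72.3% were below 0 and the median was −0.27, so 37 of the 38 members lay below the median of all genes, where by definition 50% of genes lie. Ube2c was the exception.

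At least 2-fold lower were 13 of the 38 members (34.2%), against 8.7% of all genes at level. No member was 2-fold higher, against 2.28% of all genes at level. Of these 13, 9 lay between −1.14 and −1.002, and the number moved with the scaling. It was 3 after the median difference was centred on 0 (background 4.38%) and 2 after quantile normalization (4.43%), as after subtracting a lowess curve of difference against level (3.99%). The member median was −0.56, −0.63 and −0.62 under these scalings, and 37 members lay below the median of all genes under each. Mki67 and Kif18a stayed past the 2-fold line under all 3 scalings and Ttk after centring, so the roles of anaphase promotion, kinetochore, spindle assembly and cytokinesis had 0 such members under each. The direction of the gene-level value of Ube2c turned, to 0.03, 0.05 and 0.06, while the other 37 members stayed below 0. By the median of their exon-level probesets, without these scalings, all 39 members lay below the median of all genes (−0.24), Ube2c included (−0.34). The plot of intensities by role shows both arrays for each gene.

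**Figure D1:**
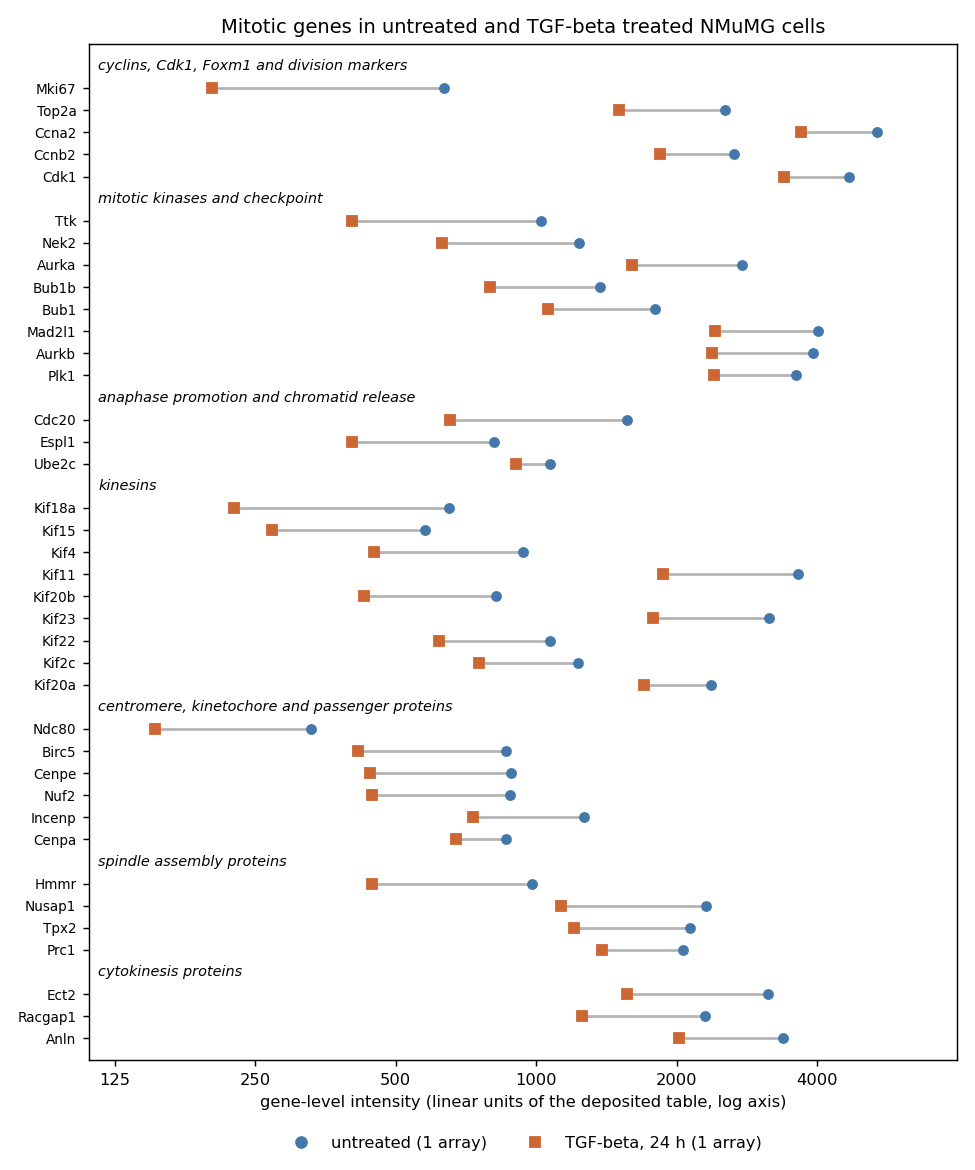
Gene-level intensity (x axis, linear units of the deposited table on a log axis) of the 38 mitotic genes, grouped by role, in the untreated array (circles) and the TGF-beta array (squares), with 1 array per condition. Every square lies to the left of its circle, with the widest gap for Mki67 (636 against 202) and the narrowest for Ube2c (1071 against 907).

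Among the division markers and the cell cycle engine, Mki67 stood apart from the rest. Mki67 (transcript cluster 6971848), which coats mitotic chromosomes and is the standard marker of proliferating cells, had an intensity of 636 without and 202 with TGF-beta, 31.8% of the untreated value. Its difference was −1.65 at gene level and −1.44 ± 0.15 (SD of 4 probesets) at exon level, the largest gap between levels of any member (0.21). Top2a (6791298), the topoisomerase that untangles sister chromatids, had 2542 and 1506, a difference of −0.76, with all 36 probesets at level below 0 (median −0.75 ± 0.28, SD). Both genes mark proliferation, yet Mki67 was lower than Top2a at both levels. Their probesets overlapped, since those of Mki67 ran from −1.59 to −1.23 and the lowest of Top2a was at −1.37.

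The cyclins and Cdk1 were bright in both arrays and differed less. Cdk1 (6774794), the kinase that starts mitosis, had 4691 without and 3398 with TGF-beta, 72.4% of the untreated value. Its difference of −0.47 was matched by 9 probesets at −0.46 ± 0.18 (SD), all below 0. Its partners were close to it, with cyclin A2 (Ccna2) at −0.54 (5385 to 3697) and cyclin B2 (Ccnb2) at −0.52 (2655 to 1846). Foxm1, the transcription factor that switches on many G2 and M genes, was read from 11 probesets, all below 0, at a median of −0.63 ± 0.29 (SD). Its median probeset intensity was 3468 without and 2061 with TGF-beta. Of the 5 genes of this role with a gene-level value, 1 was at least 2-fold lower.

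The mitotic kinases and checkpoint proteins numbered 8, with a median of −0.77, and all were below the median of all genes. At least 2-fold lower was 1 of them (12.5%, near the 8.7% of all genes at level). The count was 1 after centring and 0 after quantile normalization or removal of the trend. Ttk (6990948), the kinase also known as Mps1 that starts checkpoint signalling at unattached kinetochores, had 1024 without and 403 with TGF-beta, a difference of −1.34. Its 22 probesets were all below 0 (−1.38 ± 0.51, SD), and 20 of them were at least 2-fold lower. At gene level the other checkpoint members of this role lay close together. The kinase Bub1 was at −0.76, its relative Bub1b, which restrains the anaphase-promoting complex, at −0.78, and Mad2l1, the protein that captures Cdc20, at −0.74. Their exon-level medians lay farther apart, at −0.90, −0.79 and −0.65. Ttk was below these partners at both levels.

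Aurkb (6781970), the Aurora kinase that corrects faulty attachments, had 3913 and 2377, a difference of −0.72, with 12 of 13 probesets below 0 (−0.73 ± 0.34, SD). Aurka, the Aurora kinase of the spindle poles, was close to it at −0.78 (2760 to 1601). Plk1 (6964033), the polo-like kinase needed from mitotic entry to cytokinesis, had 3606 and 2402, a difference of −0.59, with all 14 probesets below 0 (−0.59 ± 0.24, SD) and none 2-fold lower. A second cluster annotated to Plk1 lay below the level rule and was not used. Nek2, a kinase that separates the centrosomes, was at −0.97 (1235 to 629), next to Ttk in size within this role.

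The 3 genes of anaphase promotion ranged from −1.26 for Cdc20 to −0.24 for Ube2c, the member that differed least. Cdc20 (6924892), which activates the anaphase-promoting complex and is held in check by Mad2l1 and Bub1b, had 1565 without and 655 with TGF-beta and differed by −1.26. None of the 10 Cdc20 probesets was above 0, but they ranged from −2.89 to −0.46, and their SD of 0.73 around a median of −1.11 was the widest of any member. Espl1 (6833404), the separase that cuts cohesin, had 814 and 403, a difference of −1.01 (exon level −1.02 ± 0.43, SD, with 32 of 33 probesets below 0). Ube2c (6883114), the ubiquitin-conjugating enzyme that works with this complex, had 1071 and 907, 84.7% of the untreated value, a difference of −0.24. All 7 probesets at level of Ube2c were below 0, at a median of −0.34 ± 0.23 (SD). The probesets of Cdc20 and Ube2c, which act on the same complex, overlapped only at the edge, since the lowest of Ube2c was at −0.76.

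Of the 9 kinesins with a gene-level value, 3 passed the 2-fold line downwards (33.3%, against 8.7% of all genes at level). The count was 1 under each of the 3 scalings, and the median without them was −0.94. Kif18a (6879915), which dampens chromosome movements at the metaphase plate, had 650 without and 225 with TGF-beta, a difference of −1.53. At exon level it was the lowest member of all, with 18 probesets at −1.47 ± 0.43 (SD), 17 of them at least 2-fold lower. Kif15 (6993098), which helps keep the spindle poles apart, had 578 and 272, a difference of −1.09 (27 probesets at −1.10 ± 0.46, SD). Kif4 (7012842), a chromosome-bound motor that shapes the anaphase midzone, had 935 and 449, a difference of −1.06, and its 35 probesets were all below 0 with a narrow SD of 0.28.

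Kif11, the motor that pushes the spindle poles apart, was among the bright members (3639 to 1871) and still differed by −0.96. Kif20b, a motor of cytokinesis, was at −0.94, Kif23, the motor of the centralspindlin complex, at −0.83, the chromosome-arm motor Kif22 at −0.79, and Kif2c, which takes apart microtubule ends at the centromere, at −0.71. Kif20a (6859953), which brings the passenger complex to the spindle midzone, differed least of the kinesins. Its intensities were 2369 and 1705, a difference of −0.47, with 21 of 22 probesets below 0 (−0.50 ± 0.23, SD).

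Among the centromere, kinetochore and passenger genes, 3 of 6 were at least 2-fold lower (50%, against 8.7% of all genes at level). The count was 0 under each of the 3 scalings, and the median without them was −0.99. Ndc80 (6857078), the microtubule-binding core of the outer kinetochore, was the dimmest member, at 329 without and 153 with TGF-beta. Its difference was −1.10, and its 13 probesets at level had a median of −0.99 ± 0.60 (SD). Nuf2, its direct partner in the Ndc80 complex, differed by −0.98 (16 probesets at −1.04 ± 0.28, SD). Ndc80 was thus the lower of the partners at gene level and Nuf2 at exon level. Birc5 (6785307), the survivin subunit of the chromosomal passenger complex, had 861 and 415, a difference of −1.05 (8 probesets at −1.15 ± 0.50, SD). Incenp, the scaffold of the same complex, was at −0.79 and thus nearer to Aurkb, the kinase of the complex, than to Birc5.

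Cenpe (6901592), the kinetochore kinesin that carries chromosomes to the plate, had 882 and 440, a difference of −1.002, and all 45 probesets at level were below 0 (−0.996 ± 0.37, SD). Cenpa (6929632), the histone H3 variant that marks the centromere, had 861 and 675, a difference of −0.35, or −0.08 after centring and −0.0022 after the trend was removed. Its 6 probesets were all below 0 (−0.35 ± 0.21, SD) and none was 2-fold lower. With TGF-beta, Cenpa thus had 78.4% and Cenpe 49.9% of its untreated value.

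The 4 spindle assembly genes had a median of −0.93. At least 2-fold lower were 2 (50%, against 8.7% of all genes at level), or 0 under the 3 scalings. Hmmr (6787469), a hyaluronan-binding protein that in dividing cells sits on the spindle and helps to focus its poles, had 978 without and 444 with TGF-beta, a difference of −1.14 (16 probesets at −1.16 ± 0.50, SD). Nusap1 (6880529), which bundles microtubules near chromosomes, had 2311 and 1129, a difference of −1.03 (11 probesets at −0.97 ± 0.27, SD). Tpx2, which activates Aurka on the spindle, was at −0.83, and Prc1, which cross-links the microtubules of the midzone, at −0.58.

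Of the 3 cytokinesis genes, 1 was at least 2-fold lower (33.3%, against 8.7% of all genes at level), or 0 under the 3 scalings. Ect2 (6903753), the exchange factor that turns on RhoA at the cleavage furrow, had 3144 and 1564, a difference of −1.01, with 29 of 30 probesets below 0 (−0.98 ± 0.48, SD). Racgap1, the centralspindlin subunit that recruits Ect2, was at −0.88, close to its partner Kif23. Anln, which links actin, myosin and septins in the contractile ring, was at −0.75, and its 28 probesets were all below 0 within a narrow SD of 0.21.

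The exon level gave the same picture from many separate probesets, which share the 2 arrays and a transcript and are not replicates. Probesets counted as at level if their brighter array reached 265, the exon-level median. Of the 777 member probesets, 737 were at level, and 731 of these (99.2%) were below 0, against 67.4% of all 118109 probesets at level. At least 2-fold lower were 295 (40.0%), against a background of 11.6%, and none was 2-fold higher, against 3.55%. With TGF-beta, 104 of the 737 were under 265, so the size of their difference is uncertain. All 39 members had a negative median over their probesets, from −1.47 to −0.34, and in 33 every probeset at level was below 0. The median of the member medians was −0.88, against −0.24 over 9612 genes with at least 3 probesets at level.

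Gene-level and exon-level values ordered the members alike. Across the 38 genes with both, Pearson's r was 0.98 and Spearman's rho 0.97, a description of values that come from the same arrays, and the median gap between the levels was 0.03 in size. By both levels, 9 members were at least 2-fold lower, namely Birc5, Cdc20, Espl1, Hmmr, Kif15, Kif18a, Kif4, Mki67 and Ttk. Cenpe, Ect2, Ndc80 and Nusap1 were so at gene level alone, and Kif20b and Nuf2 at exon level alone, all of them close to the 2-fold line. The plot of probesets for each gene shows this spread.

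**Figure D2:**
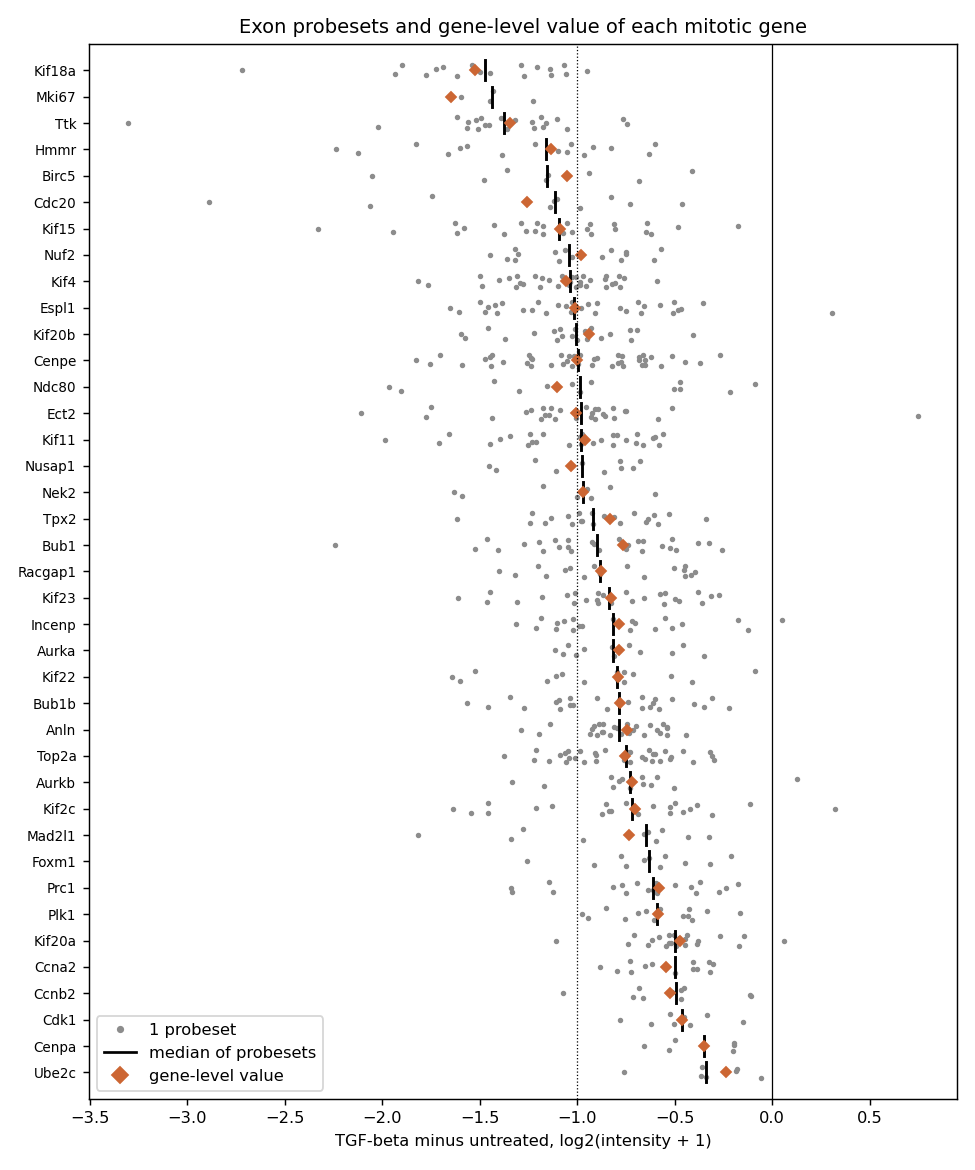
Difference of each exon probeset at level (dots), the median of the probesets (bars) and the gene-level value (diamonds) for the 39 mitotic genes, as TGF-beta minus untreated in log2(intensity + 1) with 1 array per condition, and a dotted line at a 2-fold lower value. The medians run from −1.47 for Kif18a to −0.34 for Ube2c, and 6 of the 737 dots lie above 0; Foxm1 has no gene-level value.

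Single probesets that left their gene were few. A probeset's departure is how far its difference lay from the median of the other probesets at level in the same gene, where that gene had at least 5. It reached 1 in size for 14 of 733 member probesets (1.91%), against 3.64% of all probesets tested, in 12 genes, with 11 lower (background 1.62%) and 3 higher (background 2.02%). The probeset that departed most belonged to Ttk (probeset 4699979), with 364 without and 36.0 with TGF-beta and a departure of −1.94. A probeset of Cdc20 (5484442) had 680 and 91.1, a departure of −1.78, and it is part of the wide SD of that gene. The next departures on the lower side were in Bub1 (−1.36), Kif18a (−1.27), Kif15 (−1.25), Mad2l1 (−1.18), Ect2 (−1.15) and Hmmr (−1.14). With TGF-beta, all of these lower probesets lay under 265 except that of Ect2, which was at 270, so the sizes of these departures are uncertain.

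The higher departures were in genes whose other probesets were lower. In Ect2 a probeset (5564302) had 339 without and 571 with TGF-beta, a difference of 0.75 against a gene-level difference of −1.01, and a departure of 1.76. This gene also held a probeset that departed the other way (5515376; 1168 to 270), so its probesets departed both ways. In Espl1 a probeset (4598074) had 870 and 1075, a departure of 1.33. Kif2c had 1 at 1411 and 1763, a departure of 1.07. The probesets carry no exon positions here, and no splice form is named from them.

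Brighter members tended to have differences of smaller size. Across the 38 members, the signed difference and the mean log2 level had a Pearson r of 0.61 and a Spearman rho of 0.66. These are a description, since both quantities come from the same 2 intensities. The 12 members under 1000 in untreated cells had a median of −1.05, and 9 of them were at least 2-fold lower. The 9 members from 1000 up to 2000 had a median of −0.79 and the 17 above 2000 one of −0.75, each with 2 members at least 2-fold lower. All genes at level followed the same order, with medians of −0.36, −0.28 and −0.17 in these ranges. In the same ranges, 10.4%, 8.18% and 5.77% of all genes at level were at least 2-fold lower. After the trend of all genes was removed, r was 0.27 and rho 0.27 among the members.

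Pooled over the member genes, the probesets followed a like order, and each range can hold a different mix of genes. Member probesets with an untreated intensity from 265 up to 1000 had a median difference of −1.17 (234 probesets), those from 1000 up to 2000 −0.95 (206), those from 2000 up to 4000 −0.78 (171) and those above 4000 −0.58 (126). Among all probesets at level, the medians in these ranges were −0.38, −0.28, −0.17 and −0.09. The member median was the lower one in every range, and both medians were smaller in size in each brighter range. The part of brightness in the order of the members was not tested.

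**Figure D3:**
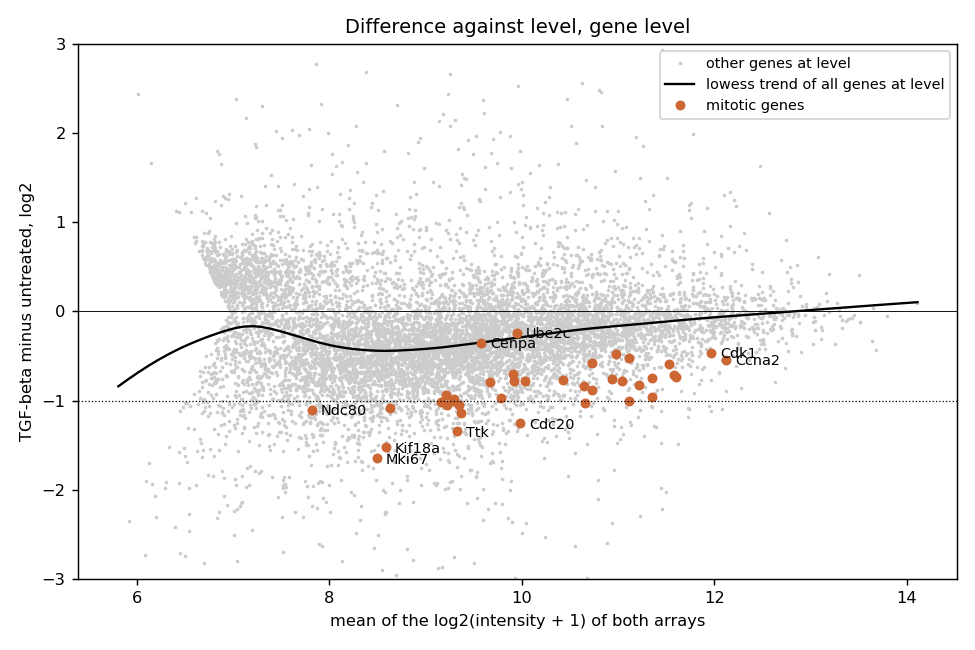
Difference, TGF-beta minus untreated in log2(intensity + 1) (y axis), against the mean log2 level of both arrays (x axis) for genes at level (grey), with the lowess trend of all genes (line) and the 38 mitotic genes (coloured); the dotted line is a 2-fold lower value, and 35 genes beyond 3 in size are not drawn. All mitotic genes except Ube2c and Cenpa lie −0.31 or lower from the trend, and Mki67 and Kif18a lie lowest. The SD of the differences of all genes at level is 0.64.

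A further 122 genes of cell division that are not members were listed by complex, of which 99 had a gene-level value and 97 were at level. Of these 97, 33 were at least 2-fold lower (34.0%, against the 8.7% background), 64 lay within 2-fold and none was 2-fold higher. Their median was −0.81, close to that of the members. The count was 11 after centring and 10 after quantile normalization or removal of the trend. The groups differed in their medians, from −1.07 for other kinetochore genes to −0.34 for the anaphase-promoting complex.

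Of 23 other kinetochore and centromere genes, 13 were at least 2-fold lower (6 after centring, 7 under each of the other 2 scalings), with a median of −1.07. Cenpk (360 to 92.3, −1.95), Cenpu (521 to 161, −1.69) and Ska1 (164 to 50.2, −1.69) had the largest sizes. The first 2 belong to the inner kinetochore network on Cenpa nucleosomes, and Ska1 holds on to moving microtubule ends. In TGF-beta cells Cenpk and Ska1 lay below the level rule, so their exact sizes are uncertain. Within this group of 23 genes the range was wide, since Zwint, a partner of the outer kinetochore, was at 0.15 and Cenpt, which links Ndc80 to the centromere, at 0.05. Both were named after their values were seen. Condensin, which compacts mitotic chromosomes, had a median of −0.99 and 3 of 7 subunits past the 2-fold line (0 under each of the 3 scalings), with Smc4 (−1.26), Ncapg2 (−1.25) and Smc2 (−1.03) largest. All 7 lay between −1.26 and −0.87.

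Cohesin, which holds sister chromatids together and also works outside mitosis, had none of 9 listed genes at least 2-fold lower. The median of these genes was −0.36, or −0.12 after the trend was removed, and the largest sizes were those of Stag1 (−0.73), Pds5b (−0.58) and Smc1a (−0.53). The anaphase-promoting complex and its regulators likewise had none of 14 at least 2-fold lower, with a median of −0.34, or −0.04 after the trend was removed. Their largest sizes were those of Fbxo5, the inhibitor also known as Emi1 (−0.98), Anapc13 (−0.80) and Anapc11 (−0.76). Cdc27, a core subunit, was at 0.04 (3967 to 4074), named after its value was seen. The activator Cdc20 was at −1.26, or −0.97 after the trend was removed, and thus no longer past the 2-fold line.

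Of 10 entry kinases and phosphatases, 5 were at least 2-fold lower (2 after centring, 1 under each of the other 2 scalings), with a median of −0.98. The largest sizes were those of Pbk (1017 to 385, −1.40), Melk (521 to 213, −1.29) and Cdc25c (496 to 216, −1.20), the last being a phosphatase that activates Cdk1. Of 15 other spindle and cytokinesis genes, 6 were at least 2-fold lower (2 under each of the 3 scalings), led by Shcbp1 (795 to 249, −1.67), Iqgap3 (−1.28) and Ckap2l (−1.19). The checkpoint, passenger and cohesion guard group had 3 of 10 at least 2-fold lower (0 under the 3 scalings), namely Haspin (−1.15), the histone kinase that calls the passenger complex to centromeres, Sgo1 (−1.14), which shields centromeric cohesin, and Cdca8 (−1.08), the borealin subunit of the passenger complex. Cdca8 and Birc5, of the same complex, were at −1.08 and −1.05.

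The list named DREAM and MuvB held MuvB subunits, which act through the CHR element, and other regulators such as E2f1. Its 9 measured genes were all below 0 but differed in size. At least 2-fold lower were 3 of them (1 after centring, 0 under the other 2 scalings), with Mybl2, the B-Myb partner of MuvB in dividing cells, at −1.31 (1030 to 414), and the MuvB subunits Lin9 at −1.25 (374 to 157) and Lin54, which contacts the CHR itself, at −1.05 (1454 to 703). E2f4 (−0.19), Lin37 (−0.21) and Rbbp4 (−0.10) lay above the median of all genes, all 3 named after their values were seen. Among the members with both a promoter window and a gene-level value, the 26 with TTTGAA or TTCGAA had a median of −0.81 and the 7 without it a median of −1.002. At least 2-fold lower were 9 of the 26 with it and 4 of the 7 without it. Mki67, Ttk and Cdc20, whose windows hold the motif, were among the 13 at least 2-fold lower, as were Kif18a and Birc5, whose windows do not. Ube2c and Cdk1, whose windows printed above hold it, were among the 4 that differed least. A link between the motif and the size of the difference was not tested.

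**Figure D4:**
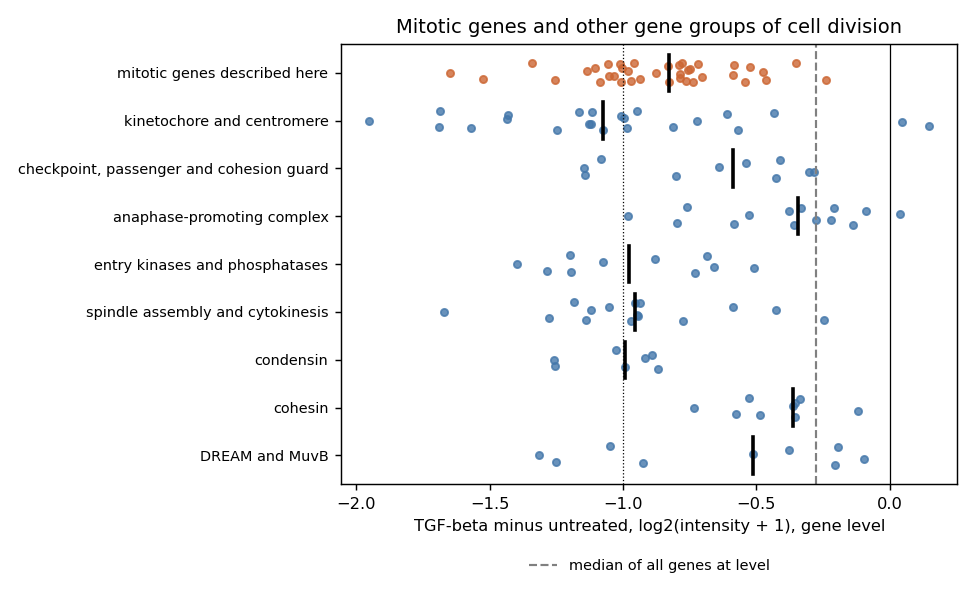
Gene-level difference, TGF-beta minus untreated in log2(intensity + 1), of the 38 mitotic genes and of 8 other gene groups of cell division (dots are genes at level, bars are medians, 1 array per condition), with the median of all genes at level (dashed, −0.27) and a 2-fold lower value (dotted). Kinetochore, condensin and entry kinase medians lie at −1.07, −0.99 and −0.98, those of cohesin and the anaphase-promoting complex at −0.36 and −0.34.

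Checks of the labels used genes of other lists. Of 9 TGF-beta response genes measured, all were past 2-fold, with Fn1 (2.93), Smad7 (1.09) and Skil (1.15) among the 6 higher and Id1, Id2 and Id3 the 3 lower. This list was chosen with earlier results of these data known, so its count is no independent check of the labels. Of 7 epithelial markers measured 6 were at level, and 3 of these were at least 2-fold lower with TGF-beta, as they were under all 3 scalings. They were Krt19 (4612 to 578, −2.99), Ocln (550 to 171, −1.68) and Cdh1 (4153 to 1698, −1.29). Tjp1 was at −0.62, and Krt18 (8494 and 9785) and Cldn3 (139 and 160) at 0.20 each. Epcam lay below the level rule (68.5 and 62.2). The 5 endothelial markers and 5 of 6 leukocyte markers measured were below the level rule, with summed intensities of 243 and 331 for the first and 563 and 535 for the second, of which Cd68 alone gave 317 and 190. Of 8 fibroblast markers 6 were below it, and the sum was 591 without and 977 with TGF-beta. These lists were not tested for a part in the mitotic differences.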

How the data were processed

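RNA of untreated and TGF-beta treated NMuMG cells was measured on exon arrays, with 1 array per condition. The authors deposited intensities on a linear scale, summarised from core probesets per transcript cluster and per probeset, per the labels and the design text. How background and scale were handled, and with which software and build, was not given in the sources used here. Because the design text names 2 samples, the 4 columns were read as 2 summaries of the same arrays. Medians were 130.1 and 120.1 at gene level and 297 and 239.5 at exon level. Precision is limited by the number of arrays.

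Symbols came from the platform annotation, updated through RefSeq (GRCm38.p6). Of 23332 clusters, 14996 had 1 symbol, 1019 several and 7317 none; of 229581 probesets, 209279, 4446 and 15856. Those with several or none were not named, and 1 cluster per symbol, the brightest, was used. Differences are of log2(intensity + 1), with at least 1 in size called; no test was possible. Alternatives were 3 scalings, 3 level rules, a pseudocount of 16 and exon-level medians. Every member is named by rule, described in full when past 2-fold, among the 4 differing least, or in a fixed set (Mki67, Top2a, Ccnb1, Cdk1, Plk1, Aurkb, Foxm1); of other lists, the 3 largest sizes; and the 10 largest departures. Members, lists and rules were chosen with earlier results of these data known. Python 3.11.15, pandas 2.3.3 and statsmodels 0.14.6 (lowess fraction 0.3) were used, tested on simulated data.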

Additional observations from a re-analysis of the deposited data

How the results depend on the processing

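All results rest on 1 array per condition. No paired analysis was possible because each condition had 1 array and no value came from a test. The direction of the member median, at both levels, and the count of 0 members 2-fold higher held in every alternative; the member median ranged from −0.88 to −0.56. The counts past 2-fold were less stable. Members at least 2-fold lower numbered 13, but 3 after centring and 2 after quantile normalization or removal of the trend; without the level rule, with it at the 75th percentile or on the smaller intensity, with a pseudocount of 16 or by exon medians they numbered 11 to 13. Other mitotic genes at least 2-fold lower numbered 33, but 11 after centring, 10 after quantile normalization or removal of the trend and 18 with the level rule at the 75th percentile, where 72 of 97 were left; their median was −0.54 after centring. Of 737 member probesets, 295 were at least 2-fold lower, 150 after centring, 149 after quantile normalization, 107 after removal of the trend and 150 of 526 with the stricter level rule. Departing member probesets numbered 14, but 4 after removal of the trend, 28 without the level rule, 2 with the stricter rule and 3 with the rule on the smaller intensity, which leave out dim probesets by construction. For these alternatives the share over all probesets is not given here, so the probeset counts cannot be set against a background. At gene level, Ube2c was the 1 member above 0, under the 3 scalings. It was −0.24 without them. Signal near the lower end of the scale could not be told from background.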
